A study of Mus musculus with 15 samples.

Results

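The genes described are 9 enzymes and enzyme subunits that bring pyruvate into the mitochondrial tricarboxylic acid (TCA) cycle and carry it round. They are Pdha1, Pdhb and Dlat of the pyruvate dehydrogenase (PDH) complex, the pyruvate carboxylase Pcx, and the cycle enzymes Cs, Idh3a, Ogdh, Fh1 and Mdh2. They were chosen by function, by matching these symbols to the rows of the expression table, and all 9 of 9 were found among its 14392 genes. The study asked what the loss of maternal USP16, a deubiquitinase of histone H2A, does to embryonic gene expression. Its RNA-seq comprised 8 libraries in 4 groups of 2, zygotes and 2-cell embryos of the WT and cKO genotypes. Each was a pool of 10 embryos, amplified by Smart-seq2, which primes on poly(A) tails and keeps no strand. The cKO embryos, labelled Usp16 maternal -/ paternal +, came from Usp16 fl/fl;Gdf9-Cre mothers, and the WT embryos came from Usp16 +/+ mothers. Gdf9-Cre acts in oocytes from the primordial follicle stage on, so the mothers' other tissues kept the gene. All mothers were superovulated juvenile C57BL/6 females, and all fathers were WT males, so every cKO embryo carried an intact paternal Usp16 allele. Nothing in the labels says that replicates came from separate matings, so a p-value here measures the spread between these pools, which may be technical. Because the libraries are bulk pools, fewer cells of a type and less RNA per cell cannot be told apart. The study also reports that cKO embryos were slow to pass the stage after the zygote, and that part of them arrested there. Differences between cKO and WT 2-cell embryos were not separated from such delay or arrest, whose part in them was not tested.

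Pyruvate, rather than glucose, is the main fuel of the early cleavage mouse embryo. The PDH complex turns it into acetyl-CoA, with E1 (Pdha1 and Pdhb) removing the carboxyl group, E2 (Dlat) passing the acetyl group to coenzyme A and E3 (Dld) reoxidising the lipoyl arm. Pyruvate carboxylase makes oxaloacetate instead, and citrate synthase (Cs) joins acetyl-CoA and oxaloacetate into citrate at the entry of the cycle. PDH and several enzymes of the cycle have been described in the nuclei of mouse embryos around the time of zygotic genome activation (ZGA), the onset of transcription from the embryo's own genome.

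Of the 9 genes, 8 had entries in the RefSeq promoter table of GRCm38.p6, and Idh3a had none. Of the 14 entries, each holding 250 bases before and 50 bases after a transcription start, 6 belonged to Ogdh and 2 to Pcx. The promoters of Dlat and Cs are shown because both transcripts were lower in 2-cell embryos than in zygotes of the same genotype, and those of Pdhb and Mdh2 because both were higher. Capitals mark the CCAAT box (CCAAT) and the GC box (GGGCGG), searched on both strands, and every sequence reads 5′ to 3′ along its gene. The Dlat promoter is at chr9:50659731-50660030 on the minus strand and that of Cs at chr10:128337477-128337776 on the plus strand. The Pdhb promoter is at chr14:8172943-8173242 on the minus strand and that of Mdh2 at chr5:135778399-135778698 on the plus strand.
Dlat: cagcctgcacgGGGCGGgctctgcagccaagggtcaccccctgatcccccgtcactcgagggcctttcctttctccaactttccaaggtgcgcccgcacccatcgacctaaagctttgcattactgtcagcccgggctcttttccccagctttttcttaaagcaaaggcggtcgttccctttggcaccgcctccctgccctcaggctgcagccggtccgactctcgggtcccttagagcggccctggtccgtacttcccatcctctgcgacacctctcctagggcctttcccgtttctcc
Cs: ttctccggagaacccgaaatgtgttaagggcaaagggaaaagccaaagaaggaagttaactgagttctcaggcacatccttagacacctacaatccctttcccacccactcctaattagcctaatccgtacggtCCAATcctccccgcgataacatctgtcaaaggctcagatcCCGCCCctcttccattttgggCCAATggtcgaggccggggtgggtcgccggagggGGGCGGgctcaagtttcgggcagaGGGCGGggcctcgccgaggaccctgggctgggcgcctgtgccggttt
Pdhb: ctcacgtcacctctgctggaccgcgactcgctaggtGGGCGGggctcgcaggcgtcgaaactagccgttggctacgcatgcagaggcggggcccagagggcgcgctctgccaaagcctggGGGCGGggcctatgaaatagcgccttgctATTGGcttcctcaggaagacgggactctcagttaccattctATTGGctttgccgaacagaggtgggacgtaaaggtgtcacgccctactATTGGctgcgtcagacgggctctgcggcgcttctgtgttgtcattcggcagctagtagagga
Mdh2: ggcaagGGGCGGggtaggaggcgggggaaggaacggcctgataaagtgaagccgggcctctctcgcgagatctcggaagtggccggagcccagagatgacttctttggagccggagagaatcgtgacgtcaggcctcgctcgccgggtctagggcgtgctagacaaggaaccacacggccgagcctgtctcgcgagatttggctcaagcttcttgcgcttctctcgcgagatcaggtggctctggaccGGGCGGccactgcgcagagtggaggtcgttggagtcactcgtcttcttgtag
A GC box was found in 7 of the 8 genes, the exception being Pdha1. By entry it was found in 10 of the 14, against 35.7% of all 32851 promoters of this length in the table. The 14 entries held 49.3% to 72.3% G and C, beside a median of 52.7% for all promoters. A CCAAT box was found in 5 of the 8 genes, namely Pdhb, Pcx, Cs, Ogdh and Fh1. By entry it was found in 11 of the 14, against 37.4% of all promoters. These 11 include all 6 Ogdh and both Pcx entries. Several Ogdh windows overlap, so for either motif the entries are not separate cases, and the shares by entry show no enrichment. Neither Dlat, which fell, nor Mdh2, which rose, held one, so this motif did not divide the genes by their direction of change. The ETS core (CCGGAAG) and the TATA box (TATAAA) had no match in any of the 14 entries, against 8.86% and 13.6% of all promoters. A match is a match of letters only.

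Expression was deposited as FPKM, fragments scaled by exon length and by the number of mapped fragments, with lower values raised to 1. A gene at 1 is therefore at the floor, and depth is unknown because the table holds no counts. Usp16, the deleted gene, was at 184 and 187 FPKM in the WT zygote libraries and 16.8 and 22.0 in the cKO zygote libraries, as their genotype labels state. It was at 168 and 183 FPKM in WT and 168 and 84.8 in cKO 2-cell embryos. Both cKO libraries were thus far lower than both WT libraries in zygotes. At the 2-cell stage cKO replicate 1 (167.7) was all but level with WT replicate 1 (168.4), and only cKO replicate 2 was clearly lower. The summed FPKM was 547752 to 593317 in 7 libraries and 770989 in cKO 2-cell replicate 2. More than 3-fold separated 1912 genes between the cKO 2-cell replicates, against 20 to 199 in the other groups, so that the cKO 2-cell pair was the least alike. All 9 listed oocyte markers were above the floor in every library, with a summed level of 10900 to 11712 FPKM in zygotes, 4902 and 6033 in WT and 1122 and 2642 in cKO 2-cell embryos. Of 6 markers of the 2-cell stage 4 were in the table, summing to 5.45 to 8.99 FPKM in zygotes, 352 and 560 in WT and 136 and 129 in cKO 2-cell embryos. Of the oocyte markers 7 of 9 in WT and 8 of 9 in cKO were lower after cleavage without overlap, the exceptions being Zp3 in both and Zp1 in WT, and all 4 of the 2-cell markers were higher in both genotypes. Of 9 cumulus cell markers 3 were in the table, summing to 24.3 to 28.7 FPKM in zygotes, where all but Cyp19a1 were at the floor, and 3 to 10.3 in 2-cell embryos. Of 6 sperm markers 4 were in the table, summing to 16.5 to 23.1 and 4 to 11.4 FPKM in the same order, with Prm2 as the main part in zygotes. Some members moved the other way, as Tnfaip6 (cumulus) was at 1 in every zygote library and 1.83 and 7.45 FPKM in WT 2-cell embryos, and Tnp1 (sperm) at 1 and then 4.28 and 5.69. These sums moved with stage, and the oocyte and 2-cell sums also with genotype, and their part in the results below was not tested.

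The zygote carried an uneven set of these transcripts. In WT zygotes the order by mean FPKM, a level per transcript length, was Cs (156), Pdhb (101), Fh1 (55.9), Idh3a (36.4), Ogdh (25.4), Dlat (18.5), Pdha1 (17.2), Mdh2 (9.77) and Pcx at the floor. Libraries of Fh1 and Idh3a, of Idh3a and Ogdh, and of Dlat and Pdha1 overlapped, and the other neighbours in this order did not. At the 2-cell stage Mdh2 (229) and Pdhb (186) led the order in WT embryos, and Fh1 (8.95) and Dlat (5.93) stood just above Pcx (1.31). In cKO 2-cell embryos Pdhb (267) and Mdh2 (249) overlapped at the top, Dlat (1.30) and Pcx (1.44) overlapped at the bottom, and the wide replicates of Ogdh overlapped those of its neighbours.

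**Figure D1:**
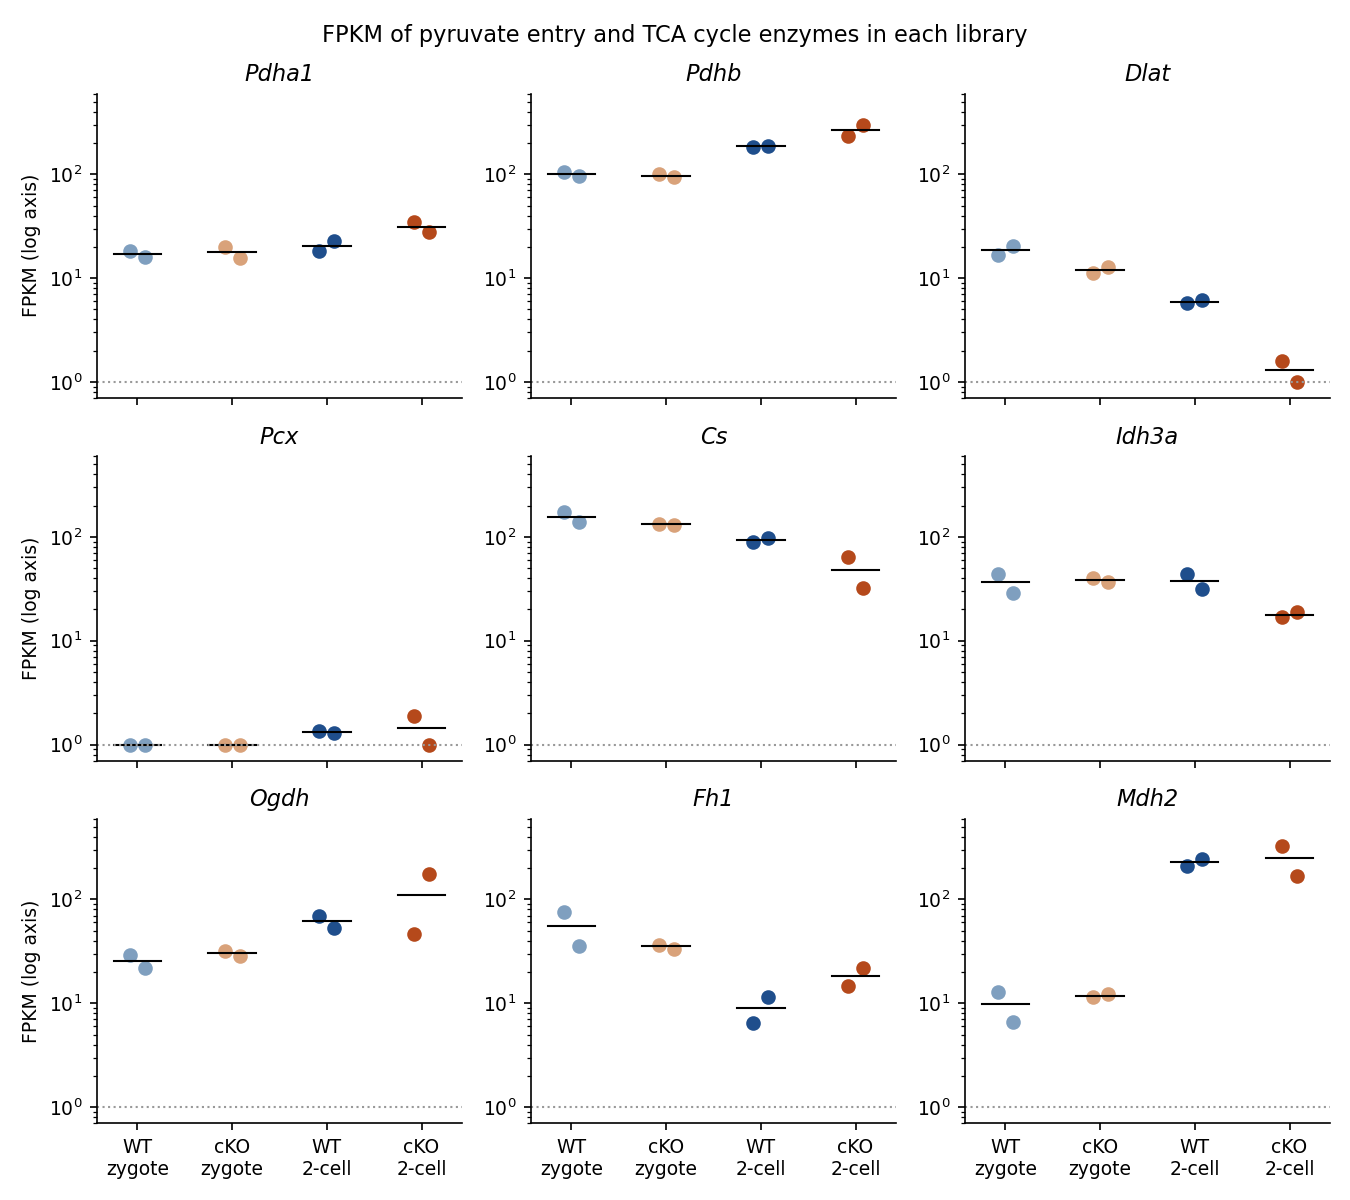
FPKM on a log axis (y) for each of the 9 genes in the 8 libraries (x, 4 groups of 2); points are libraries, horizontal bars are group means and the dotted line is the floor of 1 FPKM. Mdh2 lies at 6.62 to 12.9 FPKM in the zygote libraries and at 168 to 330.0 in the 2-cell libraries, while Dlat goes from 11.1 to 20.2 down to between 1 and 6.11.

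From zygotes to 2-cell embryos of the WT, Mdh2 and Pdhb rose and Dlat and Fh1 fell. By limma on log2(FPKM + 1) with Benjamini-Hochberg adjustment over all genes, 2 of the 9 rose and 2 fell, where 34.2% of all genes rose and 15.5% fell. More than 3-fold separated the group means of Mdh2, which was higher, and of Dlat and Fh1, which were lower. For all genes these shares were 26% higher and 8.78% lower. The libraries of the stages did not overlap for 4 that were higher and 3 that were lower, against 49.4% and 26.4% of all genes. Without cKO 2-cell replicate 1 or 2, whose spread enters the fit, the limma count of 4 became 7, with Cs, Ogdh and Pcx added. Fold changes on the log2(FPKM + 1) scale understate those of genes near the floor.

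Of the E1 subunits, Pdha1, the alpha chain with the sites that PDH kinases phosphorylate, was at 18.3 and 16.0 FPKM in WT zygotes and 18.2 and 22.9 in WT 2-cell embryos. The libraries overlapped, and the log2 difference of 0.24 ± 0.23 (SE, n = 2 a group, adjusted p = 0.428 by limma) changed sign under another scaling. Pdhb, the beta chain of the same enzyme, was at 104 and 97.2 FPKM in zygotes and 182 and 189 in 2-cell embryos. Both 2-cell libraries were above both zygote libraries, by 1.84-fold in the means (log2 difference 0.88 ± 0.19, SE, limma adjusted p = 0.0103). This call was lost after median-ratio scaling (0.54, adjusted p = 0.117) and without WT zygote replicate 2 (0.83, adjusted p = 0.0563). Dlat, the acetyltransferase that forms the core of the complex, went from 16.7 and 20.2 FPKM to 5.74 and 6.11. Its libraries did not overlap, and the mean fell 3.11-fold (log2 difference -1.48 ± 0.24, SE, limma adjusted p = 0.00328). Pcx was at 1 FPKM in both zygote libraries and at 1.33 and 1.28 in WT 2-cell embryos. The transcript of this biotin enzyme, which replenishes oxaloacetate, was thus barely above the floor in any group.

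Of the cycle enzymes, Cs was at 173 and 139 FPKM in WT zygotes and 89.7 and 97.5 in WT 2-cell embryos. The 2-cell libraries were lower without overlap, but the log2 difference of -0.72 ± 0.33 (SE) had a limma adjusted p of 0.115. That test pooled its spread with the cKO 2-cell pair, and without cKO 2-cell replicate 1 or 2 the adjusted p was 0.0126. With all libraries kept, Cs also passed after median-ratio scaling (-1.05, adjusted p = 0.0178) and quantile normalization (-0.94, 0.0353). Idh3a, the catalytic subunit of the NAD-dependent isocitrate dehydrogenase, was at 43.8 and 29.0 FPKM in zygotes and 44.0 and 31.3 in 2-cell embryos, with overlapping libraries and a log2 difference of 0.06 ± 0.27 (SE) whose sign changed with the scaling. Ogdh, the E1 subunit of the 2-oxoglutarate dehydrogenase complex, was at 29.0 and 21.8 FPKM and then 69.8 and 53.1. It was higher without overlap (log2 difference 1.24 ± 0.59, SE), with a limma adjusted p of 0.129, or 0.00881 without either cKO 2-cell library.

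Among the 9, Fh1 and Mdh2 differed most between the stages. Fh1, fumarase, which makes malate from fumarate, was at 75.9 and 36.0 FPKM in WT zygotes and 6.40 and 11.5 in WT 2-cell embryos. The 2-cell libraries were both lower, by 6.25-fold in the means (log2 difference -2.47 ± 0.44, SE, limma adjusted p = 0.00446). Without WT zygote replicate 1 the difference of the means was 4.02-fold. Mdh2, which oxidises that malate to oxaloacetate, was at 12.9 and 6.62 FPKM in zygotes and 211 and 246 in 2-cell embryos. It was 23.4-fold higher in the means (log2 difference 4.47 ± 0.41, SE, limma adjusted p = 0.000374), and the transcripts of these consecutive enzymes thus moved in opposite directions. The median log2 difference of the 9 was 0.21, beside 0.27 for all genes. Median-ratio scaling moved these to -0.08 and 0.03, and quantile normalization to -0.31 and -0.04, so that the sign of the median of the 9 depended on the scaling. The limma calls of all genes then split, in the same order, into 3623 higher and 2736 lower and into 3102 and 3935, against 4921 and 2224 as deposited.

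In cKO embryos Mdh2 and Pdhb also rose and Dlat also fell between the stages, and Pdha1 rose while Cs and Idh3a fell. By limma 3 of the 9 rose and 3 fell, where 24.6% of all genes rose and 27.1% fell. More than 3-fold separated the means of Ogdh and Mdh2, both higher, and of Dlat, which was lower, against 22.8% of all genes higher and 19.2% lower. Libraries did not overlap for 4 that were higher and 4 that were lower, against 32.3% and 35.5%. The median log2 difference was 0.26, beside 0.00 for all genes.

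Mdh2 was at 11.5 and 12.2 FPKM in cKO zygotes and 330.0 and 168 in cKO 2-cell embryos, 21.0-fold higher in the means (log2 difference 4.20 ± 0.41, SE, limma adjusted p = 0.000382). Pdhb went from 99.8 and 94.9 to 234 and 300.1 FPKM (1.44 ± 0.19, SE, limma adjusted p = 0.00125). Dlat went from 11.1 and 12.8 FPKM to 1.60 and the floor of 1, and since values under the floor are hidden its mean fell by at least 9.24-fold (log2 difference -2.51 ± 0.24, SE, limma adjusted p = 0.000377). For each of these genes the libraries of the stages lay apart.

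Cs was at 134 and 130.3 FPKM in cKO zygotes and 63.5 and 32.5 in cKO 2-cell embryos (-1.52 ± 0.33, SE, limma adjusted p = 0.00864), a call lost without cKO zygote replicate 1 (adjusted p = 0.0557) or replicate 2 (0.0510). Idh3a was at 40.2 and 36.4 and then 16.8 and 18.9 FPKM (-1.06 ± 0.27, SE, limma adjusted p = 0.0181), a call lost without cKO zygote replicate 1 (0.0992), cKO zygote replicate 2 (0.0697) or cKO 2-cell replicate 1 (0.0667). Pdha1 was at 20.0 and 15.6 and then 34.4 and 27.8 FPKM (0.78 ± 0.23, SE, limma adjusted p = 0.0317), a call lost after sum scaling (0.159) and without either WT zygote library (0.0549), cKO zygote replicate 1 (0.0576) or 2 (0.166), or cKO 2-cell replicate 1 (0.0799). These calls thus sat nearer to the threshold than those of Mdh2, Pdhb and Dlat, which held under every alternative run.

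Ogdh was at 31.8 and 28.5 FPKM in cKO zygotes and 46.7 and 176 in cKO 2-cell embryos. Both were above the zygote libraries and replicate 2 stood far above replicate 1, so the 3.70-fold difference of the means rested mainly on replicate 2 and was 1.55-fold without it, with a limma adjusted p of 0.0671, and of 0.00200 without cKO 2-cell replicate 1. Fh1 was at 36.8 and 33.7 FPKM and then 14.7 and 22.0 (-0.93 ± 0.44, SE, limma adjusted p = 0.128), lower without overlap. Pcx was at the floor in both cKO zygote libraries and at 1.88 and 1 FPKM in cKO 2-cell embryos. The comparison within WT and that within cKO embryos share no library, but each shares groups with the genotype comparisons that follow.

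**Figure D2:**
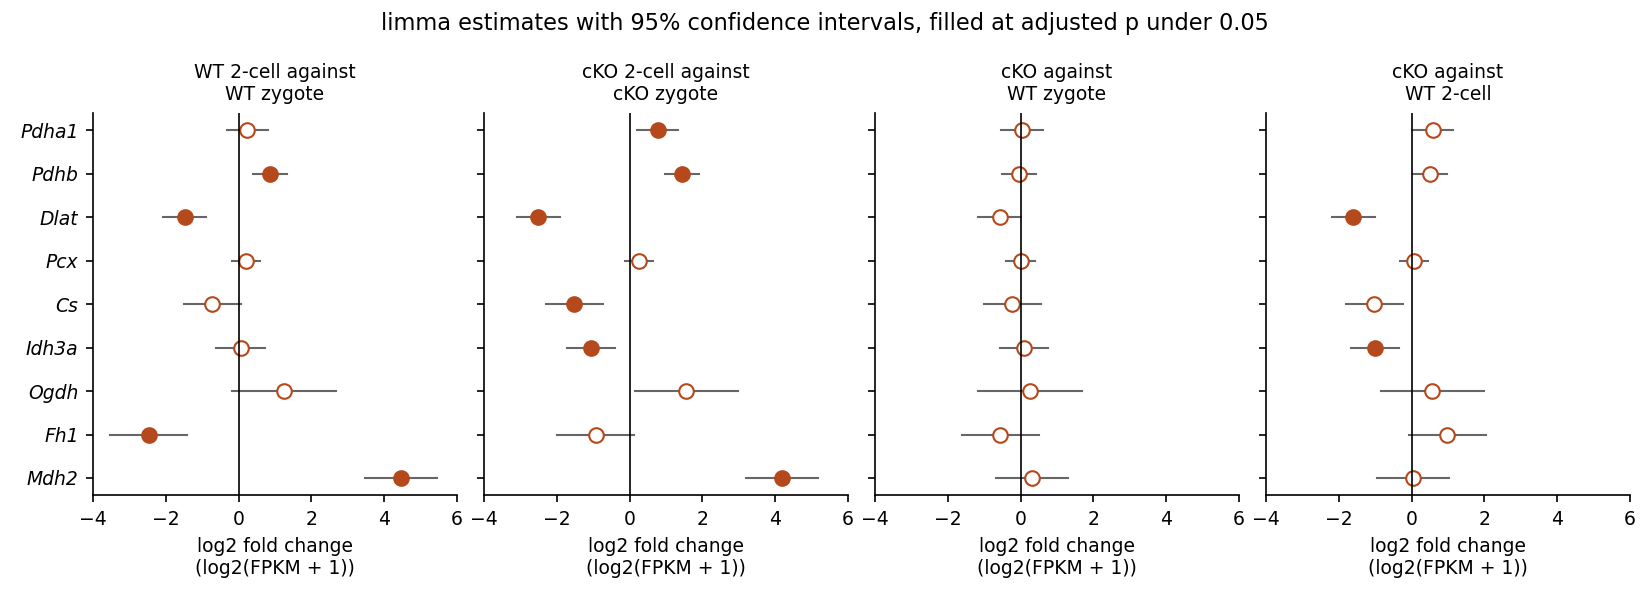
limma log2 fold changes on log2(FPKM + 1) (x) for the 9 genes (y) in 4 comparisons, with 95% confidence intervals, filled where the adjusted p is under 0.05. In the stage comparisons Mdh2 stands at 4.47 and 4.20 and Dlat at -1.48 and -2.51, in zygotes no gene is filled, and at the 2-cell stage Dlat (-1.60) and Idh3a (-1.02) are.

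Between cKO and WT zygotes no gene of the 9 passed either rule. By limma 0 were higher and 0 lower in cKO, against 0.0208% of all genes higher and 0% lower. The same count of 0 held without adjustment (p under 0.05), against 2.25% of all genes higher and 0.584% lower. More than 3-fold separated none, against 0.104% of all genes higher and 0.0486% lower. Usp16 itself, the deleted gene, was 9.58-fold lower in the means of cKO zygotes and still missed the limma threshold. It passed in 1 of 18 alternatives, with a separate spread for each group (limma adjusted p = 0.00342). A count of 0 by limma in zygotes therefore does not show that the 9 were unchanged. Dlat came closest, at 16.7 and 20.2 FPKM in WT and 11.1 and 12.8 in cKO zygotes. Its libraries did not overlap, the mean was 1.54-fold lower in cKO, and the log2 difference was -0.58 (95% confidence interval -1.17 to 0.01, unadjusted p = 0.0526, adjusted p = 1 by limma). Cs was also lower without overlap, with a log2 difference of -0.23 (-1.02 to 0.57). Among all genes, 15.8% were higher and 10.2% lower in cKO zygotes without overlap. For Pdhb the interval of the difference was -0.51 to 0.42 and for Pdha1 it was -0.53 to 0.61, so a 2-fold change of either lay outside it. The intervals of Ogdh, -1.18 to 1.68, and Fh1, -1.62 to 0.50, did not exclude that size. With 2 libraries against 2, an exact permutation test of a single gene cannot give a p under 0.333.

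At the 2-cell stage Dlat and Idh3a were lower in cKO than in WT embryos, and neither E1 subunit of PDH was. By limma 0 of the 9 were higher in cKO and 2 lower, where 6.16% of all genes were higher and 24.6% lower. The share that was lower was thus close to that of all genes. Without adjustment (p under 0.05) 2 were higher, Pdha1 and Pdhb, and 3 lower, against 9.14% and 33.4%. More than 3-fold separated only Dlat, which was lower, against 2.84% of all genes higher and 13.5% lower. Libraries lay apart for Pdha1, Pdhb and Fh1, higher in cKO, and for Dlat, Cs and Idh3a, lower in cKO, against 14% and 43.4% of all genes. The median log2 difference of the 9 was 0.06, beside -0.30 for all genes. The median of all genes in this comparison was 0.00 after median-ratio scaling, -0.43 after sum scaling and 0.01 after quantile normalization, and that of the 9 was 0.52, 0.05 and 0.20. The limma calls of all genes then split into 1437 higher and 1747 lower after median-ratio scaling and 1370 and 1464 after quantile normalization, against 887 and 3538 as deposited.

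Dlat was at 5.74 and 6.11 FPKM in WT and 1.60 and 1 in cKO 2-cell embryos. Both cKO libraries were lower, 1 of them at the floor, so that the mean was at least 4.57-fold lower (log2 difference -1.60 ± 0.24, SE, limma adjusted p = 0.00621). The direction held under every alternative run. The call was lost when each group had its own spread (adjusted p = 0.0848) and when these 4 libraries were fitted alone (0.0673). Idh3a was at 44.0 and 31.3 FPKM in WT and 16.8 and 18.9 in cKO, lower in both libraries by 2.11-fold in the means (log2 difference -1.02 ± 0.27, SE, limma adjusted p = 0.0356). That call was the less stable one and held in 7 of 18 alternatives, with an adjusted p of 0.0541 to 0.144 without any single 2-cell library, 0.0789 and 0.0788 without cKO zygote replicate 1 and 2, and 0.230 after median-ratio scaling. Cs, at 89.7 and 97.5 FPKM in WT and 63.5 and 32.5 in cKO, was lower without overlap by a log2 difference of -1.02 ± 0.33 (SE), with a limma adjusted p of 0.0586, and of 0.00530 without cKO 2-cell replicate 1.

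Of the other PDH subunits, Dld was higher in cKO 2-cell embryos, and E1 and Pdhx did not pass the test. Pdha1 was at 18.2 and 22.9 FPKM in WT and 34.4 and 27.8 in cKO 2-cell embryos, with a log2 difference of 0.58 (95% confidence interval 0.01 to 1.14, limma adjusted p = 0.113). Pdhb was at 182 and 189 FPKM in WT and 234 and 300.1 in cKO, with a difference of 0.51 (0.04 to 0.98, limma adjusted p = 0.0930, or 0.0110 without cKO 2-cell replicate 1). Neither passed the threshold as deposited, and both did after median-ratio scaling, with differences of 1.03 and 0.99. The E3 subunit Dld was at 19.9 and 16.6 FPKM in WT and 39.4 and 49.0 in cKO, higher by 1.23 ± 0.20 on the log2 scale (SE, limma adjusted p = 0.00768). Its mean fell between the stages in both genotypes, from 84.8 to 18.2 FPKM in WT and from 81.1 to 44.2 in cKO. Pdhx, which tethers E3 to the core, was at 17.1 and 20.3 FPKM in WT and 11.1 and 17.5 in cKO, with a difference of -0.39 (-1.01 to 0.23), whose sign changed with the scaling. The subunits of the 1 complex thus spanned from Dlat, lower in cKO, to Dld, higher in cKO.

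For the later enzymes the replicates of cKO embryos were wide. Ogdh was at 69.8 and 53.1 FPKM in WT and 46.7 and 176 in cKO, with a log2 difference of 0.57 ± 0.59 (SE) that was -0.38 without cKO 2-cell replicate 2 and 1.52 (limma adjusted p = 0.0138) without replicate 1. Mdh2 was at 211 and 246 FPKM in WT and 330.0 and 168 in cKO, with a difference of 0.05 (95% confidence interval -0.94 to 1.04) whose sign changed under sum scaling. Fh1, at 6.40 and 11.5 FPKM in WT and 14.7 and 22.0 in cKO, differed by 0.99 (-0.08 to 2.05, limma adjusted p = 0.140). Fh1 was higher without overlap, and the libraries of Ogdh and Mdh2 overlapped. Pcx, at 1.33 and 1.28 FPKM in WT and 1.88 and 1 in cKO, stayed near the floor, and its difference passed the threshold in opposite directions without cKO 2-cell replicate 1 (-0.21, limma adjusted p = 0.00783) and without replicate 2 (0.32, 0.00460).

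Beyond the 9, 44 other genes of the pathway were taken from lists of PDH partners and regulators, pyruvate supply, other cycle subunits, and cytosolic counterparts with exchange carriers. In cKO against WT 2-cell embryos 4 of the 44 were higher and 13 lower by limma, beside 6.16% of all genes higher and 24.6% lower. The median log2 difference was -0.58 beside -0.30 for all genes. Without adjustment (p under 0.05) 4 were higher and 20 lower, against 9.14% and 33.4% of all genes. Of the 11 PDH partners and regulators 2 were higher and 4 lower, and of 10 genes of pyruvate supply 0 were higher and 3 lower. Of 11 other cycle subunits 2 were higher and 2 lower, and of 12 cytosolic counterparts and carriers 0 were higher and 4 lower. In pyruvate supply and among the carriers the count of 0 higher also held without adjustment. In cKO against WT zygotes 0 of the 44 passed limma or the 3-fold rule in either direction, and without adjustment 0 were higher and 1 was lower.

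Dlst, Suclg2, Suclg1 and Sdhd differed between the genotypes by more than any of the 9 at this stage, but they were named by the size of this difference. They act at the 2-oxoglutarate dehydrogenase, succinyl-CoA ligase and succinate dehydrogenase steps. Dlst, the E2 partner of Ogdh, was at 14.3 and 13.7 FPKM in WT and 1.96 and 1 in cKO 2-cell embryos, lower by 2.62 ± 0.29 on the log2 scale (SE, limma adjusted p = 0.00264). Suclg2, the GTP-forming beta subunit of succinyl-CoA ligase, was at 41.7 and 55.4 FPKM in WT and 3.63 and 4.25 in cKO (-3.32 ± 0.21, SE, adjusted p = 0.000816). Suclg1, the alpha subunit of that ligase, went the other way, at 1.97 and 2.63 FPKM in WT and 13.9 and 13.2 in cKO (2.15 ± 0.24, SE, adjusted p = 0.00282). The 2 cKO libraries of each of these genes lay on the same side of both WT libraries. Sdhd, a membrane anchor of succinate dehydrogenase, was at 10.9 and 7.01 FPKM in WT and 44.7 and 63.0 in cKO (2.47 ± 0.32, SE, adjusted p = 0.00415). Other subunits at these steps differed by less than Dlat. Mean FPKM in WT and cKO 2-cell embryos was 27.3 and 21.3 for Sucla2, and 10.2 and 6.24 for Sdha. It was 18.7 and 33.3 for Sdhb, and 23.2 and 25.3 for Sdhc. Sdhd lies 30.8 kb from Dlat on mouse chromosome 9 (mm9), and their transcripts differed in opposite directions.

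Several genes that feed or regulate the cycle were lower in cKO. Me1, the cytosolic malic enzyme that makes pyruvate and NADPH from malate, was at 88.8 and 87.9 FPKM in WT and 13.4 and 11.4 in cKO 2-cell embryos (-2.74 ± 0.17, SE, limma adjusted p = 0.000816). Me2, its mitochondrial relative, was at 25.6 and 25.5 FPKM in WT and 12.7 and 5.33 in cKO (-1.51 ± 0.38, SE, adjusted p = 0.0277). That call held in 8 of 18 alternatives. It was lost without any single zygote library and without either WT 2-cell library, where the log2 difference stayed at -1.51 or -1.52. Pdp1, a phosphatase that activates PDH, was at 11.3 and 10.9 FPKM in WT and 3.07 and 3.36 in cKO (-1.53 ± 0.19, SE, adjusted p = 0.00374). Slc25a13, a mitochondrial aspartate and glutamate carrier, was at 7.72 and 14.2 FPKM in WT and 1.94 and 1 in cKO (-2.25 ± 0.35, SE, adjusted p = 0.00693). All of these were lower in both cKO libraries. Some of their relatives were not. Pdp2, another PDH phosphatase, was at 73.6 and 57.5 FPKM in WT and 187 and 56.8 in cKO. Slc25a12, another aspartate and glutamate carrier, was at 8.25 and 6.59 FPKM in WT and 10.1 and 9.40 in cKO, higher without overlap. Of the PDH kinases, Pdk1 (means of 11.3 in WT and 4.45 in cKO) and Pdk3 (30.7 and 15.1) were also lower without overlap. Pdk2 and Pdk4 stayed near the floor. Fitted with these 4 libraries alone, which leaves the differences as they are, Dld, Dlst, Suclg2, Suclg1, Sdhd, Me1, Pdp1 and Slc25a13 missed the threshold, at adjusted p from 0.0598 (Suclg2 and Me1) to 0.0951 (Slc25a13). With a separate spread for each group, Dld, Suclg1, Sdhd, Pdp1 and Slc25a13 missed it too, at 0.0561 (Pdp1) to 0.0853 (Sdhd). The subunits of the mitochondrial pyruvate carrier did not share that pattern, since Brp44 (now Mpc2) was at 215 and 257 FPKM in WT and 281 and 245 in cKO, and Brp44l (now Mpc1) at 578 and 464 in WT and 618 and 1273 in cKO.

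**Figure D3:**
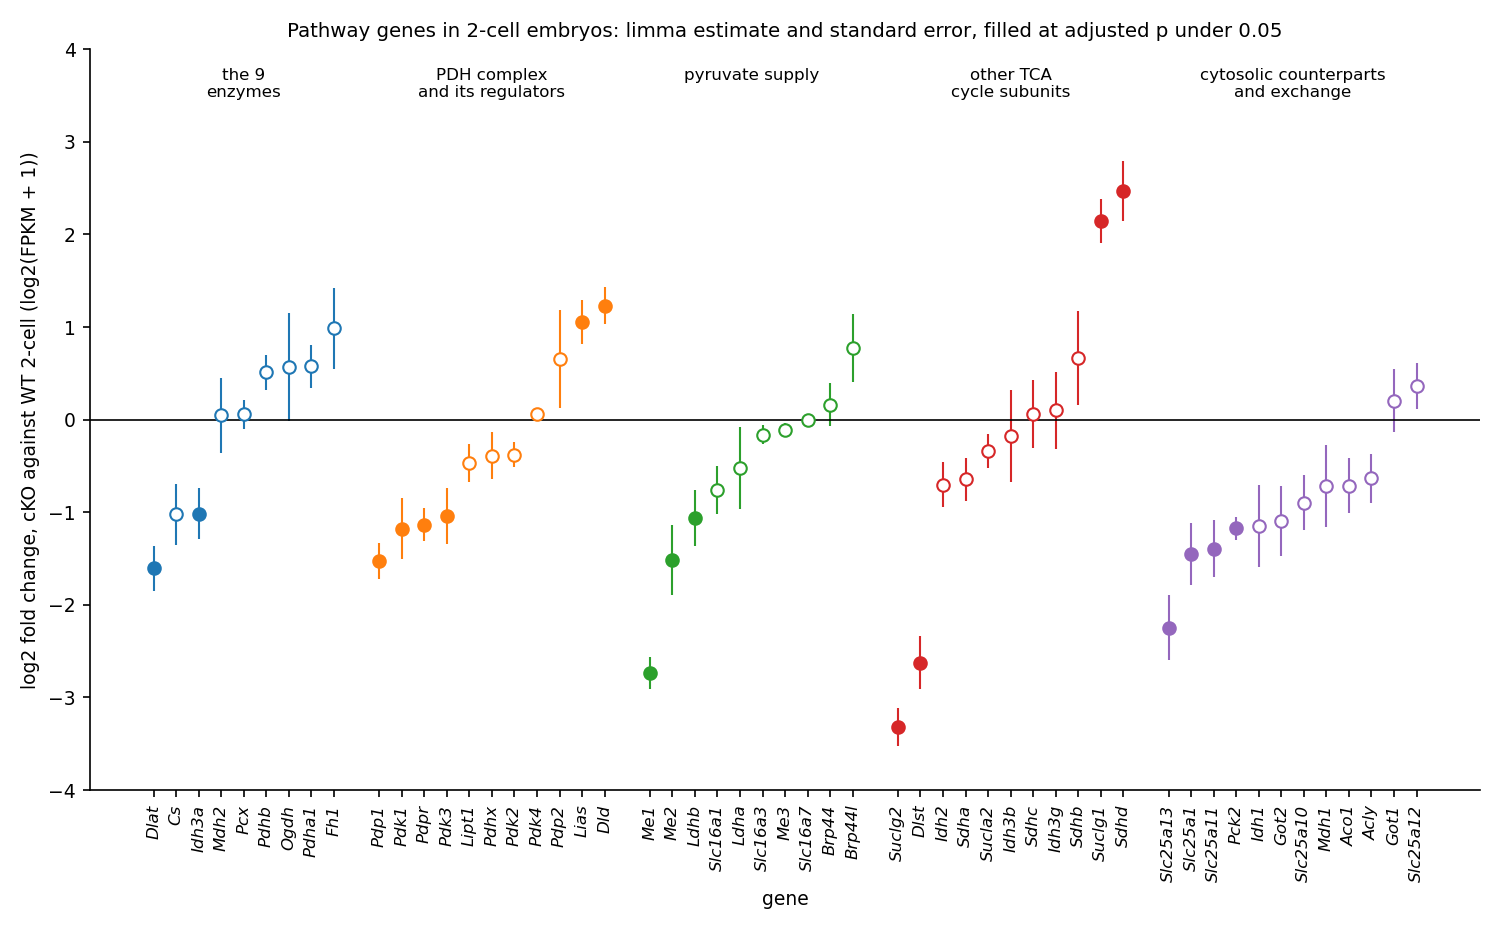
limma log2 fold change of cKO against WT 2-cell embryos on log2(FPKM + 1) (y) for the 9 enzymes and the 44 other pathway genes (x), grouped by list and sorted within each, with standard errors, filled where the adjusted p is under 0.05. Suclg2 (-3.32) and Sdhd (2.47) mark the ends of the range, and 2 of the 9 enzymes are filled, both below 0.

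Whether the genotype difference itself differed between the stages was tested by the interaction term. None of the 9 passed, with 0 higher and 0 lower by limma, against 1.58% of all genes higher and 10.2% lower. As deposited this came to 227 and 1474 genes. Median-ratio scaling changed the split to 449 higher and 657 lower, and quantile normalization changed it to 340 higher and 399 lower. Without any 1 of the 4 zygote libraries, or with the replicate number as a block, 0 genes in all were higher and 1 or 2 lower, so the share set beside the 9 rests on every zygote library. Without adjustment (p under 0.05) 1 was higher and 2 were lower, against 5.34% and 25.5% of all genes, namely Dlat (-1.02 ± 0.34, SE, unadjusted p = 0.0235, adjusted p = 0.104), Idh3a (-1.11 ± 0.39, 0.0274 and 0.114) and Fh1 (1.54 ± 0.62, 0.0453 and 0.153). The Fh1 term combines a lower value in cKO zygotes with a higher one in cKO 2-cell embryos, neither of which passed its own test. The number past the threshold was 4 without cKO 2-cell replicate 1 and 1 without cKO 2-cell replicate 2.

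Ratios of partner transcripts within a library do not depend on how libraries are scaled, the floor aside, and the pairs were chosen after their values were seen. For E1 itself, Pdhb over Pdha1 was 5.69 and 6.06 in WT zygotes, 5.00 and 6.08 in cKO zygotes, 10.0 and 8.25 in WT 2-cell embryos and 6.79 and 10.8 in cKO 2-cell embryos. This ratio was higher in every 2-cell library than in every zygote library, and did not divide the genotypes at the 2-cell stage. Dlat over Pdhb, E2 against E1, was 0.160 and 0.208 in WT zygotes, 0.112 and 0.135 in cKO zygotes, 0.0315 and 0.0323 in WT 2-cell embryos, and 0.00682 and at most 0.00333 in cKO 2-cell embryos. It was lower in cKO at both stages, without overlap. Dlst over Ogdh, the same pair of roles in the next complex of the cycle, was 1.01 and 0.928, 0.550 and 0.587, 0.205 and 0.257, and 0.0420 and at most 0.00567 in the same order of groups, again without overlap. Mdh2 over Fh1 went from 0.170 and 0.184 in WT zygotes to 33.0 and 21.4 in WT 2-cell embryos and from 0.313 and 0.362 to 22.4 and 7.65 in cKO. The transcript ratio of these consecutive enzymes turned from below to above 1 in both genotypes.

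**Figure D4:**
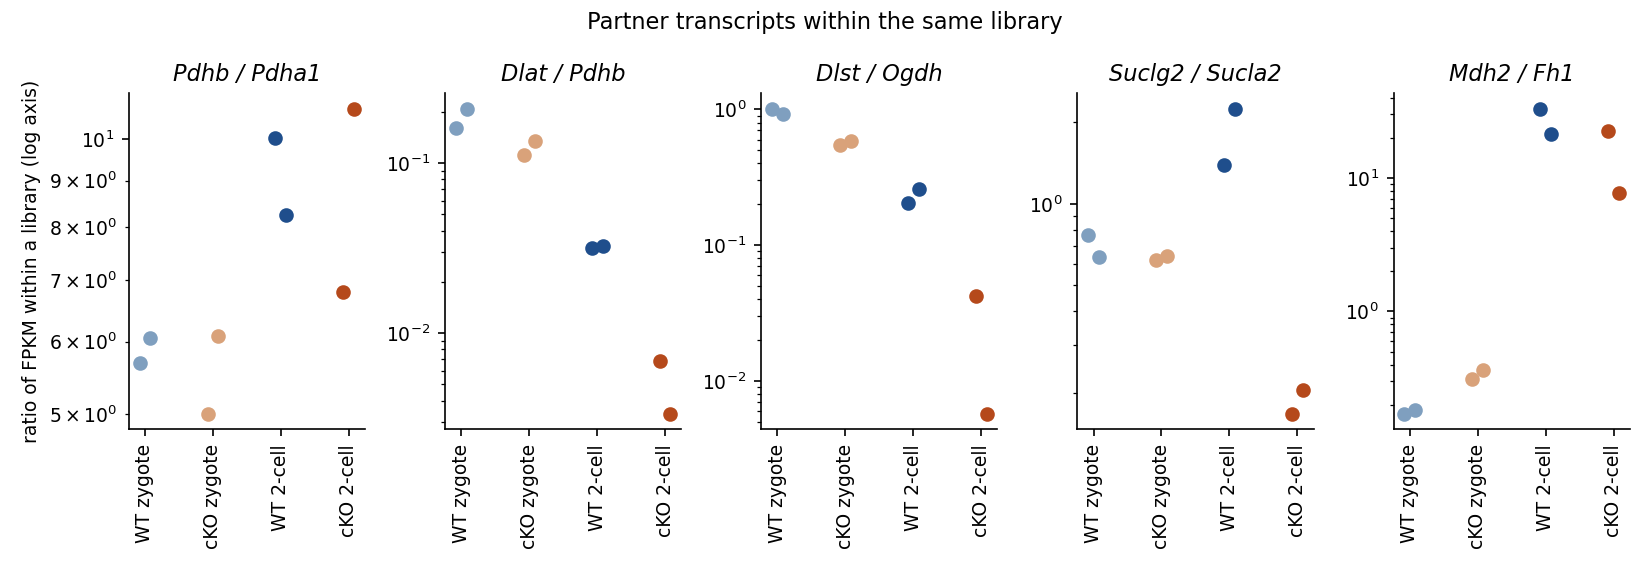
Ratio of the FPKM of 5 pairs of partner transcripts within each library (y, log axis, a separate range for each panel) by group (x, 2 libraries each); points are libraries. Dlat over Pdhb steps down from 0.160 and 0.208 in WT zygotes to 0.00682 and at most 0.00333 in cKO 2-cell embryos, and Suclg2 over Sucla2 is 1.39 and 2.25 in WT but 0.167 and 0.204 in cKO 2-cell embryos.

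Across the 8 libraries, as a description over points that share stage, genotype and library composition, the log2 level of Dlat was most like that of Cs (Pearson r = 0.949) and least like that of Pdhb (-0.954). Pdhb and Mdh2 were most like each other (0.920), and Ogdh and Pdha1 were also most like Pdhb (0.891 and 0.825). Fh1 had the weakest nearest match, Dlat at 0.563. Dlat and Pdhb, subunits of the same complex, were each the least like the other.

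In mm9 (GENCODE M1) the genes lie on separate chromosomes except Dlat (chr9:50442738-50467885, minus strand) and Idh3a (chr9:54434288-54452468, plus strand). Pdhb is at chr14:8998505-9005506 (minus), Cs at chr10:127774888-127799535 (plus), Mdh2 at chr5:136254350-136266268 (plus) and Fh1 at chr1:177530505-177555766 (minus). Ogdh is at chr11:6191636-6256645 (plus), Pcx at chr19:4510472-4621752 (plus) and Pdha1 at chrX:156560141-156576345 (minus). Exons of Pdha1 share bases with Map3k15 on the other strand, so without strand their reads there cannot be told apart, and the level of Pdha1 is uncertain to that degree. The other 8 shared exon bases with no annotated gene.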

How the data were processed

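RNA-seq of 8 libraries was analysed, with groups taken from the sample labels. The authors aligned trimmed reads to mm9 with TopHat2 2.1.1 and deposited gene FPKM from Cufflinks 2.2.1, called normalized, with values under 1 set to 1 and genes under 1 in all samples left out. The annotation is not given in the sources used here, and the ChIP-seq samples were not analysed here. Precision rests on 2 libraries a group, since FPKM keeps no depth.

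The study's rule of more than 3-fold was applied to group means. limma 3.58.1 (R 4.3.3) was fitted to log2(FPKM + 1) with an intensity trend, all 8 libraries and 14392 genes, 4 residual degrees of freedom, a two-sided test and Benjamini-Hochberg adjustment at 0.05. The fit was tested on simulated data, with 200 genes changed in cKO 2-cell embryos. limma recovered 0% of them at 2-fold, 61.3% at 4-fold and 85.3% at 8-fold. The 3-fold rule recovered 9.5%, 90% and 99.7%. Unchanged genes called by limma averaged 1, 22.7 and 21.3 a run. Each simulated gene had the same spread in every group, whereas here the cKO 2-cell pair was the least alike. The changed genes were drawn from those at higher WT 2-cell levels, which left out Dlat and Pcx. Far fewer genes changed than the 887 and 3538 called here, and the adjustment depends on that number. The shares recovered therefore cannot be carried over to the comparisons above. Members, lists and ratios were chosen with earlier results of these data known. Genes named beyond the 9 were the 8 with the largest 2-cell difference among the 17 of 44 past either rule, and Dld, Pdhx and the pyruvate carrier as partners. Ldha, Ldhb, Mdh1 and Sucla2, named in ratios, and the markers named singly were chosen after their values were seen. Sdha, Sdhb and Sdhc were named as the other succinate dehydrogenase subunits, also with their values known. So were Pdp2, Slc25a12 and the PDH kinases, as relatives of Pdp1 and Slc25a13. A gene of the pathway is not reported here. Alternatives covered pseudocount, filter, scaling, spread, threshold, replicate block and leaving out each library. The crossed block was added after seeing the data. Figures and tables used Python 3.11.15, pandas 2.3.3 and matplotlib 3.10.9. Promoters came from RefSeq (GRCm38.p6) and gene positions from GENCODE M1 (mm9), and no coordinate was converted between builds.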

Additional observations from a re-analysis of the deposited data

Results flagged for a closer look

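The genotype difference at the 2-cell stage departed from that in zygotes, by limma's interaction term with an adjusted p under 0.05, for 8 of the genes described, and none of the 9 enzymes was among them. The log2 size of the departure was -3.22 ± 0.29 (SE, adjusted p = 0.00629) for Suclg2, -2.82 ± 0.25 (0.00629) for Me1, -2.14 ± 0.41 (0.0286) for Dlst and -1.22 ± 0.27 (0.0415) for Pdp1, all more negative at the 2-cell stage. It was 2.16 ± 0.34 (0.0186) for Suclg1, 2.13 ± 0.45 (0.0369) for Sdhd and 1.29 ± 0.28 (0.0398) for Dld, all more positive there. For Suclg1, Sdhd and Dld, the log2 difference of 2-cell embryos from zygotes was -2.76, -2.22 and -2.16 in WT and -0.60, -0.09 and -0.87 in cKO. Usp16 itself departed by 2.65 ± 0.48 (0.0251), from a difference of -3.21 in zygotes to -0.55 at the 2-cell stage, where its cKO libraries were at 168 and 84.8 FPKM. All 8 calls rest on every zygote library, since 0 of 8 were left without any 1 of the 4 (adjusted p from 0.0536 to 0.150) and 0 with the replicate number as a block (0.0729 to 0.114). With a separate spread for each group 2 were left, Suclg2 and Me1, and without a WT 2-cell library 6 (without replicate 1) or 4 (without replicate 2). The log2 sizes moved less than the calls. All 8 kept their sign without any single library, and Suclg2 stayed between -3.42 and -3.02 and Dlst between -2.42 and -1.85. Groups of 2 libraries are too small for a search for single outlying libraries.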

How the results depend on the processing

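Of the recomputed counts of the 9 enzymes past a threshold, 112 stayed within 1.5 times the reported count and 18 did not. With a 2-fold threshold, 6 were past it in cKO 2-cell against cKO zygotes (3 reported) and 3 in cKO against WT 2-cell (1 reported). Fitting the 2 groups alone gave 7 limma calls for WT 2-cell against WT zygotes (4 reported) and 0 for cKO against WT 2-cell (2 reported), where a separate spread for each group also gave 0, with 2 and 1 of the 9 at an unadjusted p under 0.05. Over all genes the 4 libraries of cKO and WT 2-cell embryos fitted alone gave 0 calls, with 819 higher and 3416 lower unadjusted. Leaving out 1 library in turn gave 2 to 5 for the fold rule in cKO 2-cell against cKO zygotes, and by limma 3 to 7 for WT and 3 to 7 for cKO 2-cell against zygotes, 1 to 5 for cKO against WT 2-cell (5 without cKO 2-cell replicate 1) and 0 to 4 for the interaction. The cause was not tested.

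The labels share replicate numbers but describe no pairing, and deviations of same-numbered libraries correlated at 0.497 between the zygote groups and -0.239 between the 2-cell groups. With the replicate block 1 call was left in cKO against WT 2-cell, and with the pairing crossed 2. The call lost to the block there was that of Idh3a (adjusted p = 0.0695). The block also changed the calls from 6 to 5 in cKO 2-cell against cKO zygotes, where Pdha1 was lost (0.0668), and left the counts of the 9 in the other comparisons as reported.

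Signs turned under some settings for values that passed no threshold as reported. After median-ratio scaling and quantile normalization, WT 2-cell against WT zygotes was -0.077 and -0.31 for Pdha1 and -0.27 and -0.37 for Idh3a, and cKO against WT 2-cell was 0.061 and 0.052 for Pdhx. After sum scaling and quantile normalization, cKO against WT 2-cell was -0.20 and -0.23 for Mdh2 and -0.092 and -0.15 for Brp44. Quantile normalization gave Pdha1 -0.022 in zygotes, and median-ratio scaling gave Mdh2 0.23 for the interaction. Leaving out libraries gave -0.23 to 0.34 for Idh3a in WT 2-cell against zygotes. In cKO against WT zygotes it gave -0.13 to 0.21 for Pdha1, -0.096 to 0.0017 for Pdhb, -0.19 to 0.39 for Idh3a and -0.11 to 0.75 for Mdh2. In cKO against WT 2-cell it gave -0.21 to 0.32 for Pcx, -0.38 to 1.52 for Ogdh and -0.43 to 0.53 for Mdh2, and for the interaction -0.21 to 0.32, -0.63 to 1.27 and -0.75 to 0.21.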

Other observations

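Lactate dehydrogenase interconverts lactate and pyruvate, and the balance of its subunit transcripts shifted between the stages in both genotypes. Protein was not measured. Ldhb over Ldha within a library, a pair chosen after its values were seen, was 1430 and 1309 in cKO zygotes and 2679 and at least 2911 in WT zygotes, where it divides by values of Ldha near or at the floor. It was 8.31 and 11.7 in WT and 12.2 and 3.88 in cKO 2-cell embryos, so the genotypes overlapped there. Mdh2 over its cytosolic counterpart Mdh1 was 0.0827 to 0.125 in the zygote libraries, and 5.95 and 8.45 in WT and 28.2 and 5.40 in cKO 2-cell embryos. The transcript of mitochondrial malate dehydrogenase was thus the lower of the pair in every zygote library and the higher in every 2-cell library.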
